A study of Arabidopsis thaliana with 14 samples.

Results

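YUC4, YUC6, YUC11 and GH3.3 are auxin genes of Arabidopsis thaliana: the first 3 encode enzymes of auxin synthesis and the last an enzyme of auxin conjugation. They were taken by their symbols in the probe annotation, and each was measured by 1 probe set of the ATH1 array. YUC4 (AT5G11320) had the probe set 250389_at, YUC6 (AT5G25620) 246900_at, YUC11 (AT1G21430) 260901_at and GH3.3 (AT2G23170) 245076_at. They are 4 of 13356 genes with a named probe set, of which 9769 were tested, these 4 among them.

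Auxin (indole-3-acetic acid, IAA) is made in plants mainly by a short route from tryptophan in which flavin monooxygenases of the YUCCA family carry out the last and rate-limiting step. GH3 enzymes join IAA to amino acids, which lowers the free pool or marks it for breakdown, and many GH3 genes are themselves switched on quickly by auxin. In young Arabidopsis seeds auxin is known for patterning the embryo, for endosperm growth and for the signal from the fertilized endosperm that starts seed coat growth.

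The 14 arrays measured RNA from seeds at the pre-globular stage, when the embryo proper holds 2 to 8 cells. All plants carried the Ws-0 genotype, an accession with no mutation or treatment named in the labels, and were 38 to 46 days old, grown at 20 °C in continuous light. Laser capture microdissection, in which a laser cuts chosen tissue out of a section, gave 2 biological replicates for each of 7 groups. The labels do not tie plants to regions, so the p-values measure only the spread between such captures.

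The groups were sections of the whole seed, the embryo proper, the chalazal endosperm, the micropylar endosperm, the peripheral endosperm, the chalazal seed coat and the general seed coat. Endosperm is the nourishing tissue beside the embryo, with a micropylar pole around the embryo and a chalazal pole next to the maternal tissue that supplies the seed. The seed coat is maternal tissue. The peripheral endosperm is so named in the sample titles, while the source label calls it cellularized. No suspensor sample is among the groups.

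Values are array intensities (signal) on a linear scale, which the deposited table gives already scaled. Between a pair of replicate arrays the log2 values of all tested probe sets correlated with r of 0.852 in the chalazal and 0.858 in the micropylar endosperm, and with r of 0.900 to 0.930 in the other 5 groups. The markers of the captured tissues were checked first, among the 6 compartments. The embryo gene BBM was brightest in the embryo proper (581 and 680), while PHV, the other embryo marker, was brightest of the compartments in the chalazal seed coat (mean 252), with a mean of 439 in the whole seed. Each of 6 endosperm markers was brightest in an endosperm region, all 4 seed coat markers in the general seed coat, and both chalazal seed coat markers, RR22 and SWEET10, in the chalazal seed coat. Of the endosperm markers, IKU2 did not pass the filter used for testing, and its place rests on 1 micropylar array (224 and 20.9). Seed coat markers were also seen outside the coats: the flavonoid enzyme gene DFR had 3984 and 4314 in the chalazal endosperm, against 32225 and 26570 in the general seed coat. No suspensor marker had a named probe set. In such captures fewer cells of a type and less RNA per cell cannot be told apart.

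The 4 genes had their highest signals in different groups. YUC4 was highest in the embryo proper, YUC11 in the micropylar endosperm, YUC6 in the 2 seed coat regions and GH3.3 in the whole seed. The whole seed sections hold the compartments and are not a place apart from them. Among the 6 compartments alone, YUC6 and GH3.3 both had their highest mean of log2 values in the chalazal seed coat. For GH3.3 a single chalazal endosperm array was brighter still. Signals of different probe sets are not compared here. A gene is written as called where the adjusted p (limma, Benjamini-Hochberg over all 17339 tested probe sets) was under 0.05 and the difference at least 2-fold, which is 1 on the log2 scale. Differences are of log2(signal + 35.9), which understates changes of low signals. A test for any difference among the 6 compartments gave adjusted p-values of 1.11e-06 for YUC6, 0.00386 for YUC11, 0.00453 for YUC4 and 0.0225 for GH3.3 (limma). All 4 passed the threshold, as did 62.5% of the tested probe sets.

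**Figure D1:**
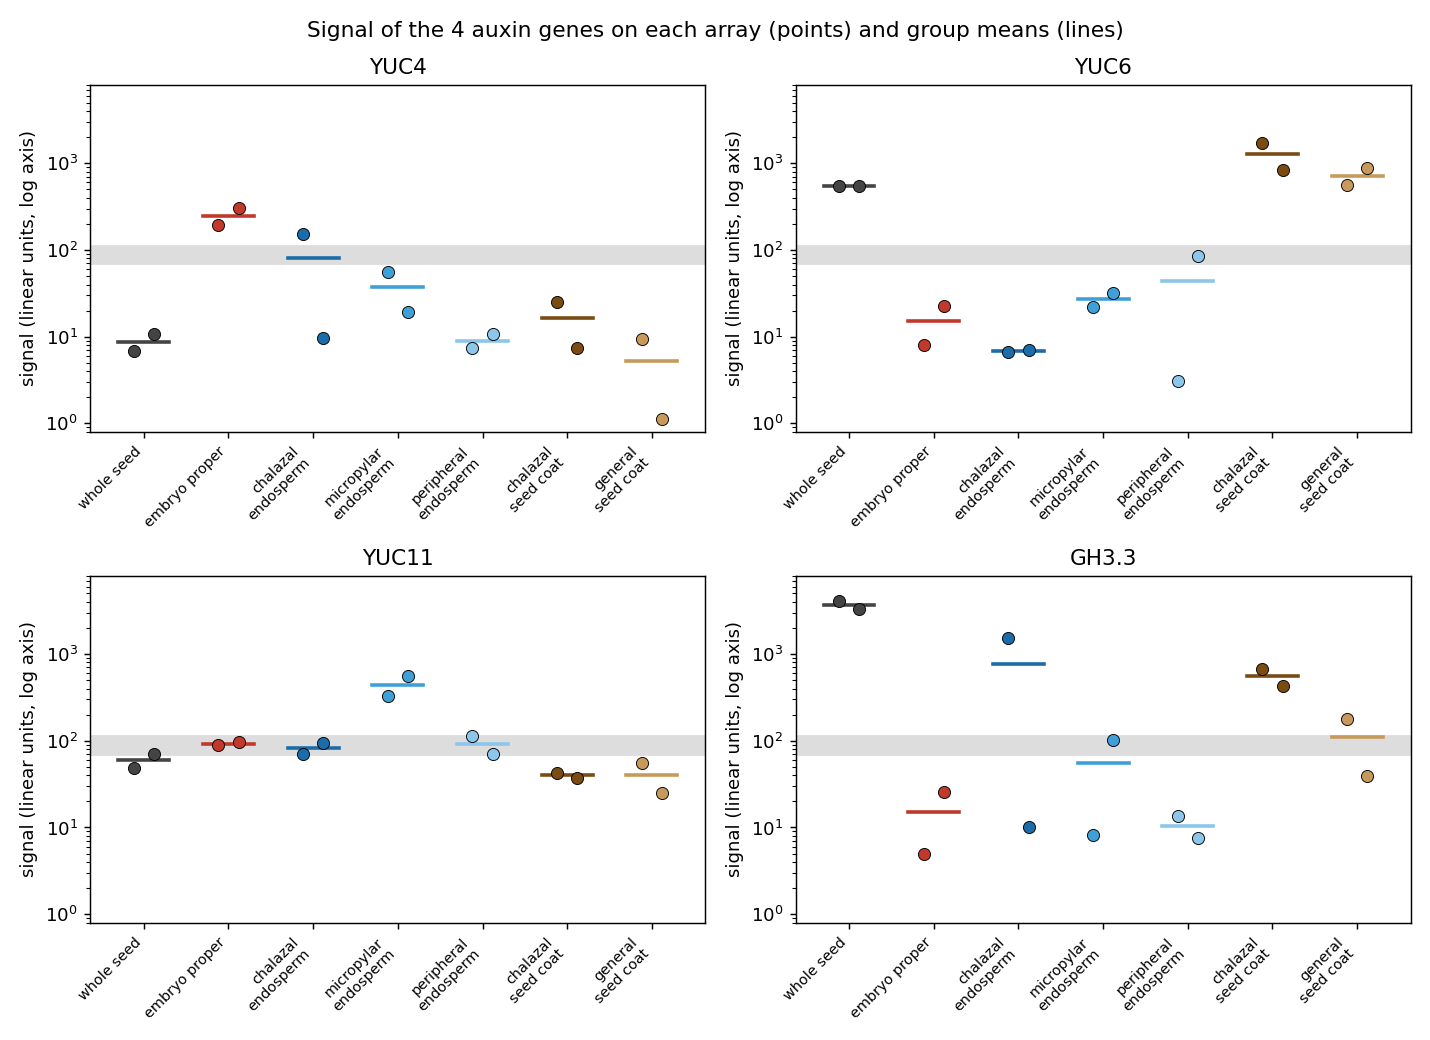
Signal of the 4 genes on each of the 14 arrays (log axis), by group. Points are single arrays, bars are group means of 2 arrays, and the grey band spans the arrays' filter levels, 68.1 to 112. YUC4 exceeds the array's own level on 3 arrays, GH3.3 on 6, and YUC6 and YUC11 on 7 each, and the 2 GH3.3 points of the chalazal endosperm lie far apart.

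YUC4, one of the YUCCA genes that act with overlapping roles in embryo and flower development, had its highest signal in the embryo proper. Its signal there was 192 and 301 (246 ± 77.2, SD, n = 2). The chalazal endosperm gave 151 on one array and 9.58 on the other (80.3 ± 100, SD, n = 2). The embryo arrays both lay above all arrays of the other 5 compartments, a pattern that 9.71% of tested probe sets showed for the embryo.

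The remaining groups were low for YUC4. The micropylar endosperm had 56.0 and 19.1, the chalazal seed coat 25.4 and 7.37, and the peripheral endosperm 7.42 and 10.6. The general seed coat had 9.50 and 1.12, and the whole seed 6.77 and 10.8. Only 3 of the 14 arrays, both embryo arrays and 1 of the chalazal endosperm, exceeded the level above which an array's signal counted for the filter. YUC4 was therefore tested only because of the embryo proper.

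Against the mean of the other 5 compartments, the embryo proper was higher in YUC4 by 2.27 on the log2 scale (SE 0.468, 95% confidence interval 1.30 to 3.25, adjusted p = 0.00107, limma). Of the tested probe sets, 13.2% were called higher in the embryo proper. The embryo proper was called higher than each other compartment singly, which held for 1.91% of tested probe sets. YUC4 passed the filter only through the embryo proper, whereas these shares cover all tested probe sets, through whichever group they passed. The difference was 2.76 over the general seed coat, 2.62 over the peripheral endosperm, 2.43 over the chalazal seed coat, 1.96 over the micropylar and 1.59 over the chalazal endosperm. For these pairs 10.8%, 8.93%, 12.2%, 12.7% and 20.0% of tested probe sets were called that way. The difference from the chalazal endosperm had an adjusted p of 0.0466 (limma), close to the threshold, and lost its call in 15 of 22 alternatives. No pair among the other compartments was called for YUC4. Without embryo replicate 2, the brighter array, 1 pair was called in place of 5 and the test of any difference among compartments gave an adjusted p of 0.0651 (limma). The call against the other 5 was kept in all 23 alternatives that could be run, with adjusted p-values of 9.53e-05 to 0.0480 (limma).

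In the order of YUC4 levels only the first step, from the embryo proper to the chalazal endosperm, was called. The chalazal endosperm, the micropylar endosperm, the chalazal seed coat, the peripheral endosperm, the whole seed and the general seed coat followed with no called difference between neighbours. The embryo proper was also above the whole seed, with a mean of 246 against 8.80 and a difference of 2.63 (SE 0.604, adjusted p = 0.00276, limma; background 10.1%). In the whole seed sections both YUC4 arrays were below the filter level, and the YUC4 signal of the embryo was not detected above that level. The embryo marker BBM had 2.89 and 85.5 in the whole seed, also below that level on both arrays.

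YUC6, a YUCCA gene known for its role with YUC2 in stamens and pollen, had its highest signals in the seed coat. The chalazal seed coat had 1719 and 839 (1279 ± 622, SD, n = 2). The general seed coat had 555 and 883 (719 ± 232, SD, n = 2). The whole seed had 550 and 554 (552 ± 2.42, SD, n = 2). The arrays of the 2 coat regions overlapped, and all 4 lay above every array of the embryo and endosperm. How many tested probe sets showed this pattern was not counted, so it is not read as particular to YUC6.

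Embryo and endosperm were low for YUC6. The peripheral endosperm had 3.11 and 84.3, the micropylar endosperm 22.3 and 32.0, the embryo proper 7.98 and 22.4 and the chalazal endosperm 6.65 and 7.07. Of these arrays only 1, of the peripheral endosperm, exceeded the filter level. The chalazal endosperm, which lies next to the chalazal seed coat, had the lowest mean (6.86 ± 0.295, SD, n = 2). Of the seed coat markers, DFR, BAN and INO exceeded the filter level on both chalazal endosperm arrays, and ARA12, RR22 and SWEET10 on 1 each. BAN, an enzyme gene of the coat's tannin pathway, had 378 and 437 there. Its means in the peripheral and micropylar endosperm were 388 and 295. Whether coat tissue was captured with the chalazal endosperm was not tested.

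The difference of endosperm from seed coat was -4.07 for YUC6 on the log2 scale (SE 0.405, 95% confidence interval -4.91 to -3.23, adjusted p = 8.78e-08, limma). Of tested probe sets, 22.2% were called lower in endosperm. Set against the other 5 compartments, YUC6 was higher by 3.74 in the chalazal seed coat (SE 0.486, adjusted p = 6.60e-06) and by 2.84 in the general seed coat (SE 0.486, adjusted p = 0.000178, both limma), with backgrounds of 15.5% and 13.2%. It was lower by the same test in the chalazal endosperm (-2.09, adjusted p = 0.00231; background 18.7%) and the embryo proper (-1.80, adjusted p = 0.00887; background 12.1%, both limma). The embryo call was lost without either embryo array (adjusted p up to 0.137, limma). The micropylar endosperm passed at -1.42 (adjusted p = 0.0399; background 11.5%, limma), a call lost in 13 of 24 alternatives. The peripheral endosperm, at -1.27 with an adjusted p of 0.0639 (limma), did not pass, and its 2 arrays differed more than those of 94.9% of tested probe sets in that region.

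Each coat region was called above the embryo proper and above each of the 3 endosperm regions, which made 8 of 15 pairs of compartments. The chalazal region was called above the embryo proper, chalazal, micropylar and peripheral endosperm for 14.6%, 19.8%, 17.7% and 17.4% of tested probe sets, and the general region for 12.2%, 20.2%, 16.1% and 15.1%. A tested probe set had a median of 3 called pairs, with quartiles of 1 and 6. The chalazal seed coat minus the general seed coat was 0.75 (95% confidence interval -0.56 to 2.06, adjusted p = 0.602, limma), an interval that holds no difference and also a difference of over 2-fold; 4.18% of tested probe sets were called higher in the chalazal region. In the order of levels the one called step of YUC6 lay between the whole seed and the peripheral endosperm, with means of 552 and 43.7 (adjusted p = 0.00102, limma). A mean of log2 values with equal weight for each compartment is not the mix that the whole seed sections hold. Against this mean 9.08% of tested probe sets were called higher in the whole seed and 1.64% lower. For YUC6 the whole seed was above this mean of the 6 compartments by 2.04 (SE 0.479, adjusted p = 0.00696, limma) and was not called against either coat region. That call was lost when either whole seed array was left out (adjusted p = 0.102 without replicate 1 and 0.109 without replicate 2, limma).

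YUC11, which with YUC1, YUC4 and YUC10 is needed in Arabidopsis for the embryo to form a root and hypocotyl, had its highest signal in the micropylar endosperm. The signal there was 330 and 553 (442 ± 158, SD, n = 2). The embryo proper, which this region surrounds, had 90.3 and 95.6 (92.9 ± 3.74, SD, n = 2). Both micropylar arrays exceeded all arrays of the other 5 compartments, a pattern shown by 7.38% of tested probe sets for that region.

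Elsewhere YUC11 stayed near the filter levels. The peripheral endosperm had 113 and 71.0 and the chalazal endosperm 70.7 and 93.1. The whole seed had 48.0 and 71.1, the chalazal seed coat 42.7 and 37.4, and the general seed coat 54.7 and 24.8. Both coat regions and the whole seed were below the filter level on both arrays, whereas every embryo and endosperm group had at least 1 array above it.

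The micropylar endosperm was higher in YUC11 by 2.19 than the mean of the other 5 compartments (SE 0.433, adjusted p = 0.000935, limma), against a background of 9.86% of probe sets called higher there. It was called above each other compartment singly, as were 1.89% of tested probe sets. The difference was 2.65 over the general and 2.61 over the chalazal seed coat, 1.99 over the chalazal endosperm, 1.88 over the peripheral endosperm and 1.85 over the embryo proper, where 11.7%, 13.0%, 13.3%, 6.05% and 11.2% of tested probe sets were called that way. It was also called above the whole seed (2.29, adjusted p = 0.00428, limma; background 9.27%). Without micropylar replicate 2, the array with the higher YUC11 signal, the pairs called numbered 2 in place of 5 and the test of any difference among compartments gave an adjusted p of 0.0550 (limma). The call against the other 5 was kept in all 24 alternatives, with adjusted p-values of 0.000122 to 0.0348 (limma).

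The endosperm as a whole was higher than the seed coat in YUC11 by 1.34 (SE 0.361, adjusted p = 0.00506, limma; background 14.0%). The embryo proper, the peripheral and the chalazal endosperm followed the micropylar endosperm within 0.13 of each other on the log2 scale, and no neighbours below the first step of the order were called. Between the embryo proper and the peripheral endosperm the difference was 0.03 (95% confidence interval -1.14 to 1.19), so a difference of 2-fold either way lies within the error. The embryo marker BBM had 125 and 6.72 in the micropylar endosperm, and the endosperm gene AGL62 had 97.5 and 107 in the embryo proper. BBM was below the filter level on the micropylar array with the higher YUC11 signal and above it on the other. Whether embryo tissue had a part in the YUC11 signal of the micropylar endosperm was not tested.

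**Figure D2:**
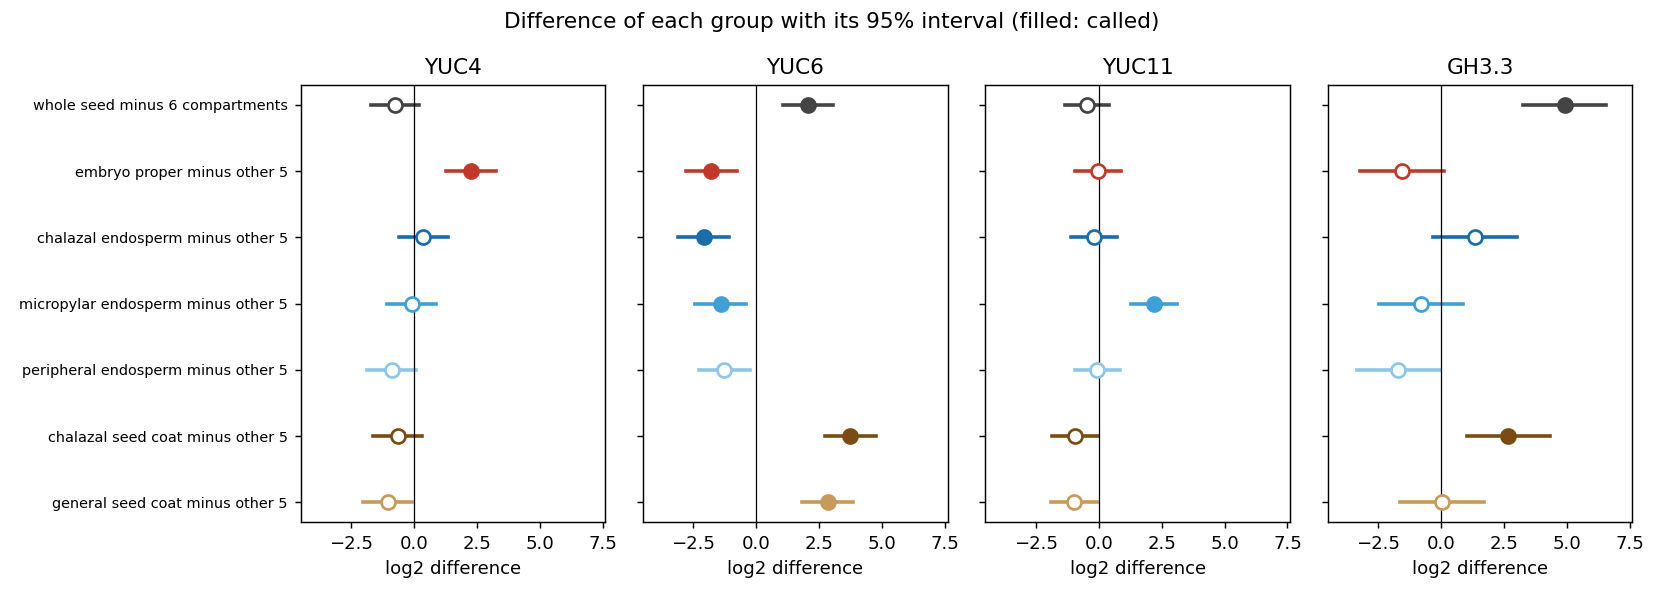
Fitted log2 differences of the 4 genes with 95% confidence intervals, each compartment against the mean of the other 5 with the whole seed set against the average of all 6. Filled points passed the test (adjusted p under 0.05 and at least 2-fold, limma). YUC4 passes in the embryo proper, YUC11 in the micropylar endosperm, and GH3.3, with the widest intervals, in the chalazal seed coat and the whole seed, while YUC6 passes in every compartment except the peripheral endosperm.

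GH3.3, which encodes an IAA-amido synthetase and belongs to the auxin-induced group of GH3 genes, was highest in the whole seed. The 2 whole seed arrays gave 4061 and 3286 (3674 ± 548, SD, n = 2). The chalazal seed coat had 676 and 433 (555 ± 172, SD, n = 2). The lower whole seed array was 2.16 times the highest of the 12 compartment arrays, a ratio reached by 20 of 17339 tested probe sets.

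That highest compartment array belonged to the chalazal endosperm, where the 2 replicates of GH3.3 disagreed, with 1519 and 10.3 (764 ± 1067, SD, n = 2). The general seed coat had 179 and 38.8 and the micropylar endosperm 8.17 and 102. In the general seed coat 1 of these arrays was above the filter level, and in the micropylar endosperm neither was. The embryo proper had 4.91 and 25.3 and the peripheral endosperm 13.5 and 7.50, below the filter level on all 4 arrays.

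The whole seed was higher in GH3.3 by 4.90 than the equally weighted mean of log2 values of the 6 compartments (SE 0.787, 95% confidence interval 3.26 to 6.54, adjusted p = 0.000279, limma). This ranked 13 among the 17339 tested probe sets, and 9.08% were called higher in the whole seed. Both whole seed arrays above all 12 compartment arrays were seen for 1.38% of tested probe sets. The adjusted p stayed between 1.10e-06 and 0.0249 (limma) in 23 alternatives.

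Taken against single compartments, the whole seed was called higher in GH3.3 than the peripheral endosperm (6.32), the embryo proper (6.21), the micropylar endosperm (5.57), the chalazal endosperm (3.78) and, of the coat, the general region (4.86). The shares of tested probe sets called that way were 15.9%, 14.8%, 16.1%, 20.2% and 2.00%. The difference from the chalazal endosperm lost its call without chalazal endosperm replicate 2, the low array (1.25, adjusted p = 0.281), without whole seed replicate 1 (adjusted p = 0.0618) and with a pseudocount of 1 (adjusted p = 0.0544, all limma). That from the general seed coat was lost without either whole seed array or without general seed coat replicate 2 (adjusted p up to 0.183), and with a pseudocount of 1 (adjusted p = 0.203, both limma). Against the chalazal seed coat the whole seed was 6.62 times as bright in the mean, a log2 difference of 2.67 (95% confidence interval 0.53 to 4.82) that was not called (adjusted p = 0.158, limma; background 3.93%). With the 2 chalazal endosperm arrays left out of the fit, this difference was called (adjusted p = 0.0153, limma), as it was with only 1 of them left out.

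Among the compartments GH3.3 was called in the chalazal seed coat alone, higher than the other 5 by 2.67 (SE 0.798, 95% confidence interval 1.01 to 4.33, adjusted p = 0.0159, limma), with a background of 15.5%. Without chalazal seed coat replicate 1 the adjusted p was 0.175 and without replicate 2 it was 0.0871 (limma), so the call needed both arrays. The chalazal seed coat was called above the peripheral endosperm (3.64), the embryo proper (3.53) and the micropylar endosperm (2.89), which made 3 of 15 pairs, with backgrounds as given for YUC6. It was not called above the general seed coat (2.19, adjusted p = 0.251) or the chalazal endosperm (1.11, adjusted p = 0.444, both limma). With both chalazal endosperm arrays left out, the chalazal was called above the general seed coat (adjusted p = 0.0361, limma). The mean signal was 555 in the chalazal seed coat against 764 in the chalazal endosperm, while the mean of log2 values was higher in the chalazal seed coat, and the single bright array decides which way they differ. The test of any difference among compartments was lost for GH3.3 in 7 of 24 alternatives, 5 of which left out an array of the embryo proper, the peripheral endosperm or the chalazal seed coat (adjusted p up to 0.108, limma).

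The gap between the 2 chalazal endosperm arrays was 5.07 on the log2 scale for GH3.3, and 3 of 17339 tested probe sets had a gap at least that wide. The brighter array was 2.25 times the higher of the chalazal seed coat arrays. Without this array (replicate 1) the chalazal endosperm was at -1.20 against the other 5 compartments (adjusted p = 0.207), and without the other it was at 3.88 (adjusted p = 0.00040, both limma), where both arrays together gave 1.34 (adjusted p = 0.206, limma). The endosperm was not called against the seed coat in GH3.3 (-1.45, adjusted p = 0.0861), and was called lower without replicate 1 (-2.30, adjusted p = 0.000444, both limma). YUC4 was also higher on the same array, by 2.04, a gap wider than that of 92.5% of tested probe sets. YUC6 and YUC11 had gaps of 0.01 and 0.27.

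Markers of the neighbouring tissue were read on the same pair of arrays. On replicate 1 of the chalazal endosperm, the bright array, the 2 chalazal seed coat markers summed to 264, against 131 on replicate 2. On the chalazal seed coat arrays themselves the same sum was 21250 and 23468. The 4 general seed coat markers summed to 4769 and 4884 in the chalazal endosperm, and 4 and 3 of them were above the filter level. Single markers differed in direction. On replicates 1 and 2, RR22 had 240 and 27.3 and ARA12 had 308 and 31.8, higher on the bright array. SWEET10 (23.7 and 104), DFR (3984 and 4314), BAN (378 and 437) and INO (99.1 and 101) were lower on it. GH3.3 had 1519 on the bright array and 676 and 433 on the chalazal seed coat arrays. Whether seed coat tissue had a part in the GH3.3 gap between the chalazal endosperm arrays was not tested.

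**Figure D3:**
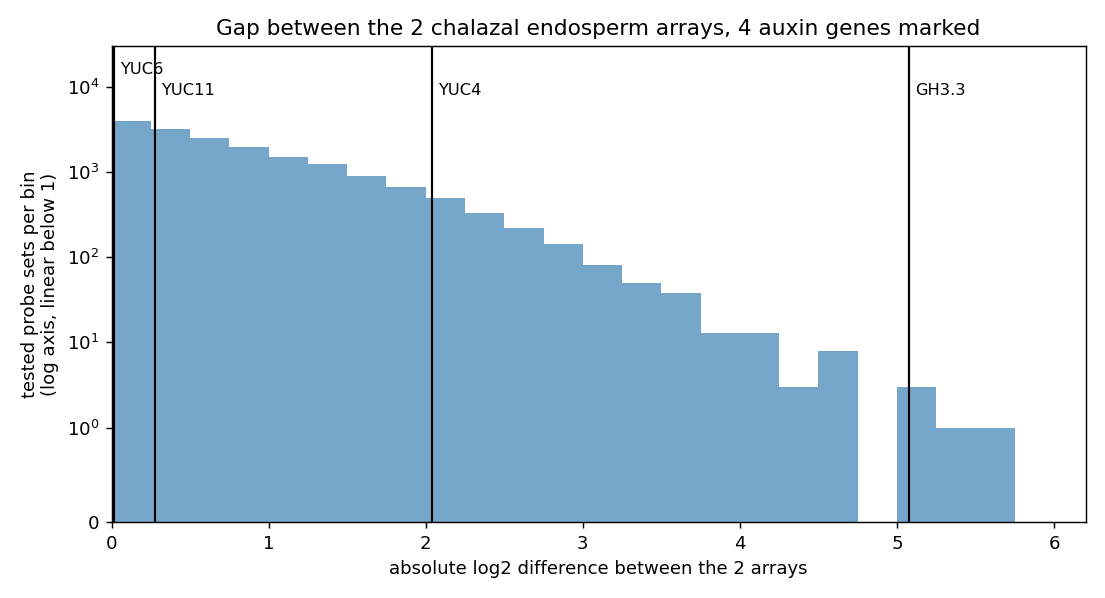
Absolute log2 difference between the 2 chalazal endosperm arrays for all tested probe sets (bars, log count axis, linear below 1), with the 4 genes marked by lines. GH3.3 lies at 5.07 in the far tail, YUC4 at 2.04, and YUC11 and YUC6 near 0.

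The chalazal pole was also compared across both tissues, as the difference between chalazal and peripheral endosperm minus the difference between chalazal and general seed coat. None of the 4 genes was called: the values were 0.71 for YUC4, -1.43 for YUC6, -0.14 for YUC11 and 0.34 for GH3.3, and 15.8% of tested probe sets were called in either direction. The smallest adjusted p was 0.297, for YUC6 (limma), and the intervals were wide, -2.69 to 3.38 for GH3.3. A p that misses the threshold does not show that the chalazal pole relates alike to both tissues for these genes.

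Over the 14 arrays the 4 genes did not follow one another closely. YUC6 and GH3.3 had a Pearson correlation of 0.54 (Spearman 0.44), and both were high in the whole seed and the chalazal seed coat. YUC6 ran opposite to YUC11 (Pearson -0.60, Spearman -0.71) and to YUC4 (Pearson -0.53, Spearman -0.39). For YUC4 and YUC11 the measures differed, with a Pearson correlation of 0.17 and a Spearman correlation of 0.51. These are descriptions over 14 arrays that share the array scaling and whose replicates are not independent points of a trend.

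Other genes followed the single patterns more closely. Among 9762 other genes, YUC4 was most like AT1G29980 (Pearson r = 0.926), AT5G08460 (0.902), TRM28 (0.899), AT5G17960 (0.893) and AT2G36550 (0.885). YUC6 was most like AT1G75730, AT4G17840, AT1G28680, AT4G29680 and AT1G62480, with r of 0.959 to 0.964. For YUC11 the first was AGL48, a MADS-box gene (0.952), followed by AT3G55700 (0.947), AT3G16970 (0.943), AT1G74990 (0.938) and AT2G24620 (0.936). GH3.3 had less close matches, AT5G44630 (0.895), AT1G14200 (0.843), AT1G47330 (0.842), AT5G18150 (0.839) and WSD1, a wax ester synthase gene (0.838). The matches of GH3.3 also differed between the 2 chalazal endosperm arrays, with 146 and 2148 for AT1G14200 and 634 and 1402 for AT1G47330. Those of YUC4 did so too, with 22.4 and 414 for TRM28 and 39.3 and 128 for AT5G17960. All of these pairs are given as the lower and then the higher array, not in replicate order. How far these gaps made the likeness was not tested. The sets depended on the measure: by Spearman's rho none of the 5 genes stayed among the first 5 for any of the 4, and over the 12 compartment arrays alone 3 stayed for YUC4, 4 for YUC6, 2 for YUC11 and none for GH3.3.

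**Figure D4:**
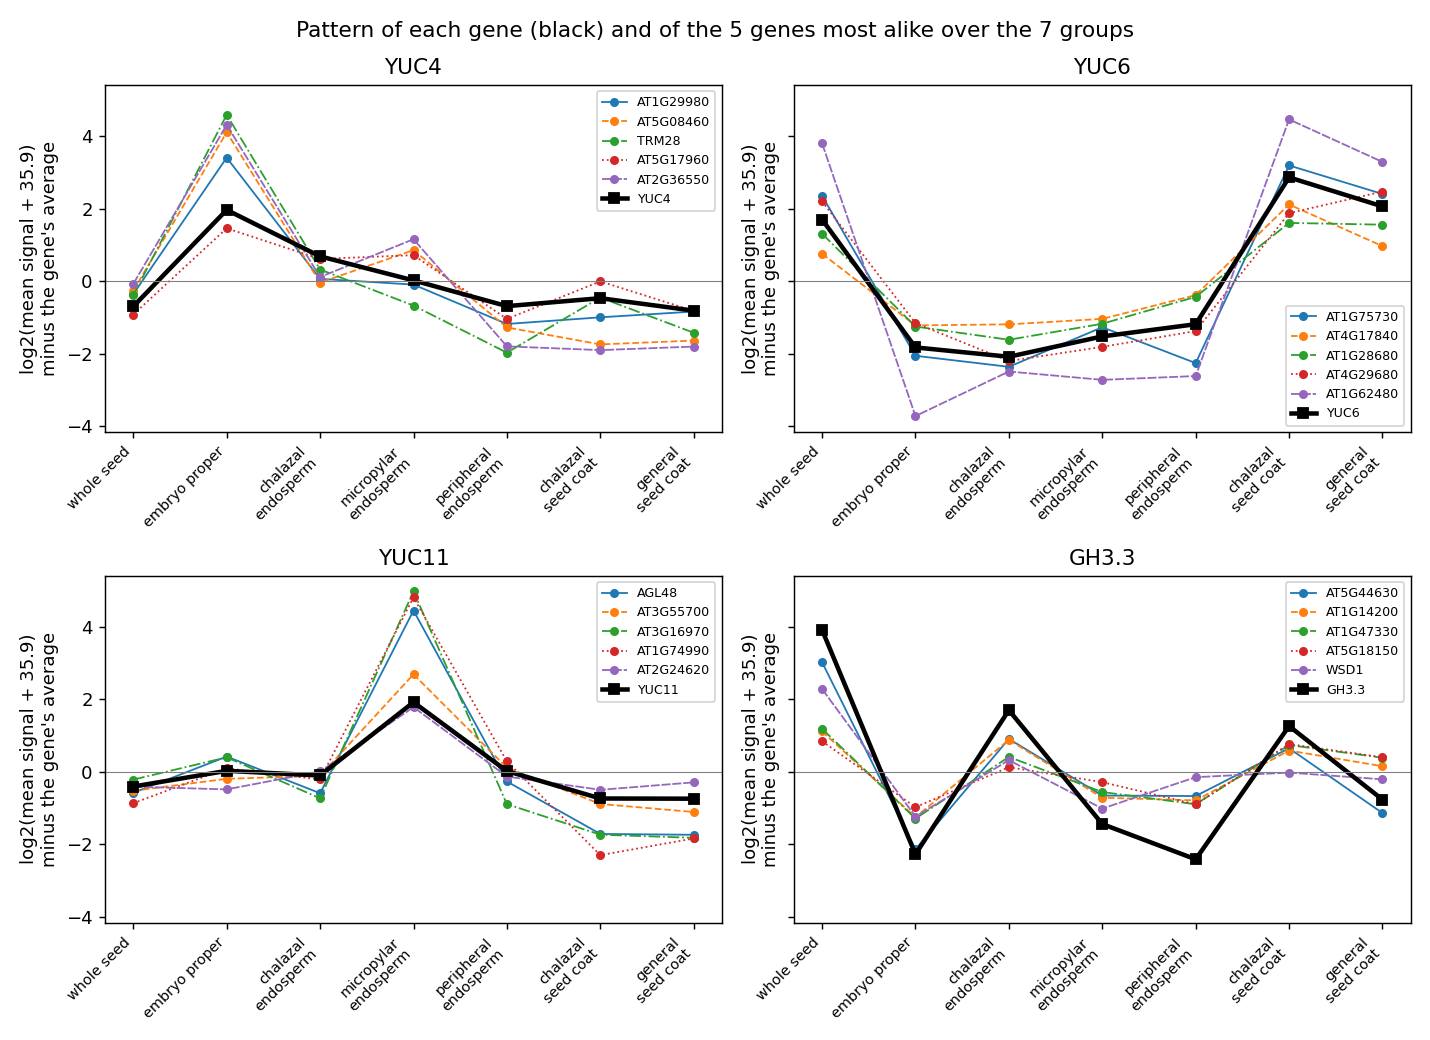
Pattern of each of the 4 genes (black squares) and of the 5 genes most like it by Pearson correlation over the 14 arrays. The y axis is log2(mean signal + 35.9) less the gene's own average over the 7 groups. The alike genes peak in the same group, the embryo proper for YUC4, the chalazal or general seed coat for YUC6, the micropylar endosperm for YUC11 and the whole seed for GH3.3.

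The auxin pathway around these genes was counted from lists of known members. Named probe sets covered only 17 other listed genes, 13 of them tested, so the counts cover a small share of the pathway: none of the 7 listed receptor genes, 23 ARF genes or 7 genes for release of stored auxin is included. Of the 13, 5 were called higher and 3 lower in the chalazal seed coat, 3 higher and 3 lower in the micropylar endosperm, and 3 higher and 2 lower in the embryo proper. Each of these counts of higher genes holds a gene that passed the filter only through that same group. They are GH3.5 in the chalazal seed coat, IAA29 in the micropylar endosperm and WAG2 in the embryo proper. The peripheral endosperm had 2 called higher and none lower, the general seed coat 1 higher and 2 lower, and the chalazal endosperm and the whole seed 1 higher each and none lower. Among all tested probe sets, the chalazal seed coat had 15.5% called higher and 9.91% lower, the micropylar endosperm 9.86% and 11.5%, and the embryo proper 13.2% and 12.1%. For the peripheral endosperm these shares were 10.2% and 11.3%, for the general seed coat 13.2% and 8.07%, for the chalazal endosperm 12.2% and 18.7%, and for the whole seed 9.08% and 1.64%. The median difference of the 13 genes was 0.14 in the embryo proper, with -0.07 over all tested probe sets, -0.31 in the chalazal endosperm (all -0.25), -0.17 in the micropylar endosperm (all -0.05) and -0.63 in the peripheral endosperm (all -0.10). It was -0.55 in the chalazal seed coat (all 0.04), -0.84 in the general seed coat (all -0.02) and 0.09 in the whole seed (all 0.09).

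In synthesis, the only other tested gene was YUC2, which was not called in any compartment. YUC2 had 236 and 164 in the chalazal endosperm and 130 and 151 in the embryo proper, while the general seed coat had 58.6 and 40.5 and the chalazal seed coat 85.1 and 47.0. The other synthesis genes, TAA1 and most of the YUCCA family among them, had no named probe set.

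Of 8 other conjugation and inactivation genes with a named probe set 5 were tested, and GH3.1, GH3.17 and DAO2 did not pass the filter. Both tested GH3 genes, GH3.9 and GH3.5, were called higher in the chalazal seed coat, as were 15.5% of all tested probe sets. The untested GH3.1 and GH3.17 had means of 24.7 and 15.9 there, below the filter level on both arrays, and had their highest means in the micropylar endosperm (113) and the general seed coat (77.1). GH3.9, a member of the GH3 family, had 394 and 489 in the chalazal seed coat and was higher than the other 5 by 2.84 (SE 0.477, adjusted p = 0.000125, limma). GH3.5, also named WES1, an IAA-amido synthetase, had 309 and 371 and was higher by 2.79 (SE 0.510, adjusted p = 0.000297, limma). GH3.5 passed the filter only through the chalazal seed coat. In the whole seed GH3.9 had 182 and 147, and GH3.5 had 8.54 on one array and 220 on the other, so neither was brighter in the whole seed than in the chalazal seed coat. DAO1, which oxidizes IAA and was named after its values were seen, was called higher in the chalazal seed coat as well (1.65, adjusted p = 0.0256, limma) and lower in the micropylar endosperm (-2.28, adjusted p = 0.00411, limma). The first of these calls was lost without either chalazal seed coat array (adjusted p up to 0.291, limma), while those of GH3.5 and GH3.9 in the chalazal seed coat were kept in all 24 alternatives.

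The glucosyltransferase genes, whose enzymes attach glucose to IAA or its oxidized form, were high in endosperm regions, each in a different pair. UGT74D1 had 5462 and 5564 in the chalazal endosperm and 2576 and 3715 in the peripheral endosperm, and was higher by 4.0 (adjusted p = 1.72e-06) and 3.01 (adjusted p = 0.000106, both limma). UGT84B1 had 2630 and 1699 in the micropylar and 1647 and 2482 in the peripheral endosperm, and was higher by 3.52 (adjusted p = 8.14e-05) and 3.44 (adjusted p = 0.000109, both limma). In the chalazal seed coat UGT84B1 had 9.77 and 5.11 and UGT74D1 had 119 and 101, and both were called lower there (-3.24 and -2.30). UGT74D1 was lower in the micropylar endosperm as well (-1.59), with 346 and 90.6, a call lost in 3 of 24 alternatives, among them that without micropylar replicate 2. It was also called lower in the embryo proper (-2.13), a call lost without embryo replicate 1. In the general seed coat UGT84B1 was called lower (-3.15). UGT84B1 also differed between the 2 chalazal endosperm arrays, with 119 on replicate 1, where GH3.3 was bright, and 1121 on replicate 2.

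Of transport genes only WAG2, a kinase that acts on PIN auxin efflux carriers, was tested. It had 377 and 217 in the embryo proper and was higher there by 2.19 (SE 0.445, adjusted p = 0.000974, limma), a call lost without embryo replicate 1 (adjusted p = 0.0514, limma). WAG2 passed the filter only through the embryo proper.

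Among Aux/IAA genes, which encode repressors that auxin marks for breakdown, 6 were tested. IAA30, one of the Aux/IAA proteins without the usual degron, had 1579 and 2495 in the embryo proper and was higher there by 4.03 (SE 0.521, adjusted p = 1.08e-05, limma). IAA31, of the same type, was higher in the general seed coat (2.58, adjusted p = 0.000512) and in its chalazal region (2.21, adjusted p = 0.00178) and lower in the micropylar endosperm (-2.50, adjusted p = 0.000897, all limma). Its whole seed arrays gave 797 and 542, those of the chalazal coat region 856 and 457 and those of the general coat region 799 and 766, and YUC6 was high in the same groups. IAA29 was called, among the 6 compartments, in the micropylar endosperm only, with 133 and 184 there (2.01, adjusted p = 0.000518, limma), the one group through which it passed the filter. IAA18 was higher in the chalazal seed coat (2.08, adjusted p = 0.00586) and the embryo proper (1.84, adjusted p = 0.0140, both limma). IAA34, named after its values were seen, was higher in the micropylar endosperm (1.67, adjusted p = 0.0324) and lower in the general seed coat (-1.61, adjusted p = 0.0371, both limma). Each of these IAA34 calls was lost in 7 of 23 alternatives, with adjusted p-values up to 0.365 and 0.222 (limma), and the micropylar value was as low as 0.92 with 1 array left out. IAA20 was not called in any compartment. Without chalazal seed coat replicate 1, IAA18 and IAA31 were not called in the chalazal seed coat, and IAA18 in the embryo proper needed both embryo arrays. IAA30 in the embryo proper was kept in all 24 alternatives.

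**Figure D5:**
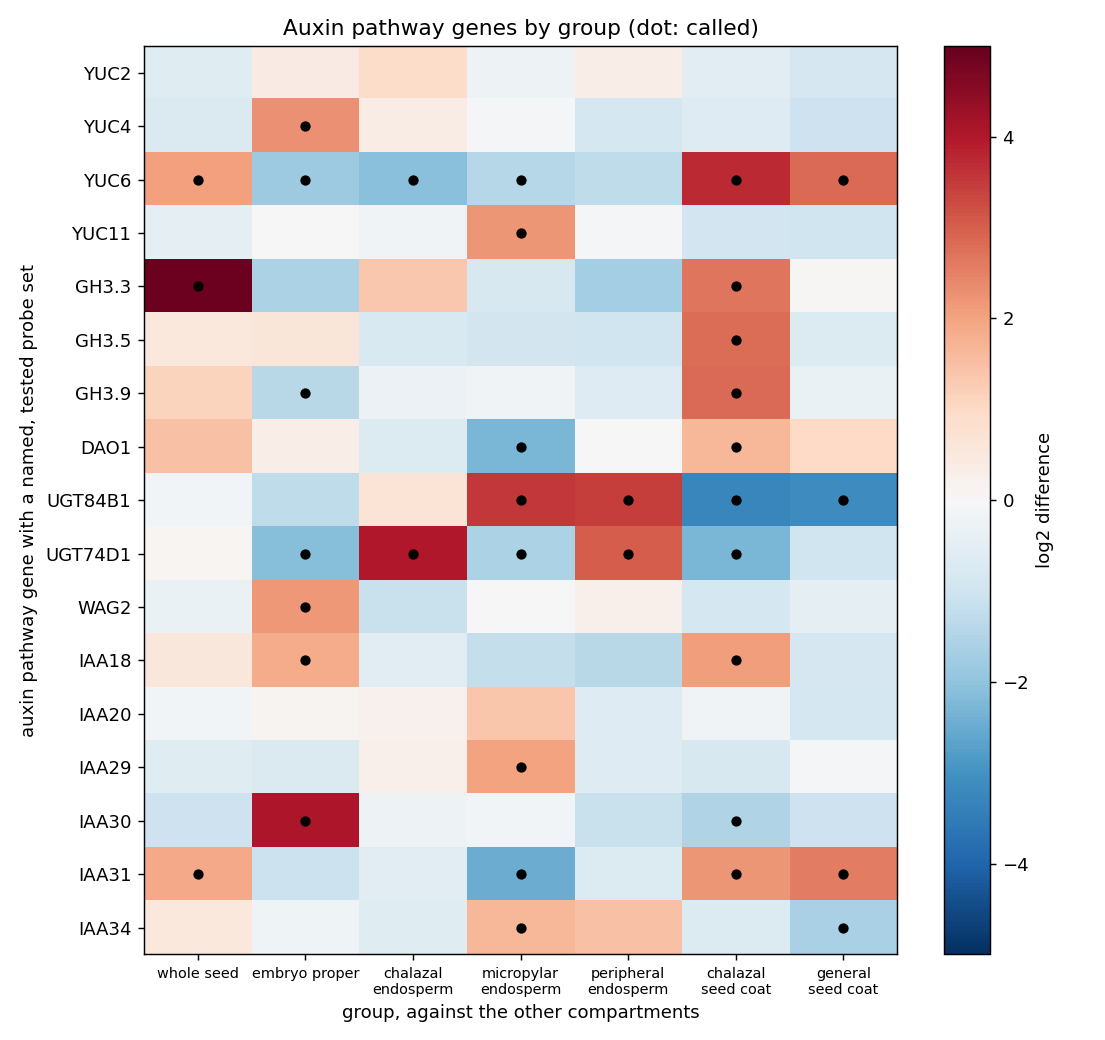
Fitted log2 differences of the 4 genes and the 13 other tested auxin genes. The first column sets the whole seed against the average of all 6 compartments and the others set each compartment against the other 5, and marked cells passed the test. GH3.3, GH3.5 and GH3.9 are high in the chalazal seed coat, UGT74D1 and UGT84B1 in endosperm regions, and YUC4, WAG2 and IAA30 in the embryo proper.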

How the data were processed

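Each of 14 ATH1 arrays had a deposited intensity, linear and not logged, for 22810 probe sets. The submitters' processing notes name GCOS; version, algorithm and gene build are not given in the sources used here. Total RNA of 2 to 5 ng was amplified before labelling, per the labels' protocols. With the bottom and top 2% of signals left out, array means were all 499.7 to 499.8. The 64 controls were dropped. The filter kept 17339 of 22746 probe sets, those with both arrays of some group over the array's own 40th percentile (68.1 to 112). Names came from the platform's annotation (1 symbol for 13513 probe sets, several for 503, none for 8730) and the TAIR10.1 gene table.

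A mean per group was fitted to log2(signal + 35.8914), the 25th percentile of all values, with limma 3.58.1 in R 4.3.3 (trended moderation, 7 residual and 13.35 prior degrees of freedom). Tests were two-sided and adjusted within each comparison. The fit was tested on simulated data. Figures used matplotlib 3.10.9 in Python 3.11.15. The members, lists and tests were chosen with earlier results of these data known. Other pathway genes were named as up to 4 called genes per list by smallest adjusted p. Alternatives were the pseudocount, the filter, quantile normalization, array weights, no trend, a replicate block, and each array, the whole seed or the chalazal endosperm left out. Replicate numbers did not pair the samples, as their deviations correlated by -0.03 to 0.04 between groups. No sequence or coordinate is given.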

Additional observations from a re-analysis of the deposited data

How the results depend on the processing

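The 4 genes had 16 results that passed the test, and 8 of them passed under each of the alternatives that could be run, among up to 24 (14 leave out 1 array each). These were YUC4 in the embryo proper, YUC6 in both coat regions, in the chalazal endosperm, between endosperm and coat and among the 6 compartments, YUC11 in the micropylar endosperm and GH3.3 in the whole seed. The embryo proper was the only group through which YUC4 passed the filter. The replicate block, run though no shared effect of the replicate number was seen, changed no call (adjusted p = 0.00104 for YUC4 in the embryo proper and 0.0132 for GH3.3 in the chalazal seed coat, limma). YUC4 could not be tested with the filter at the 60th percentile. Of 25 calls of the other pathway genes, 14 were kept under every alternative and 0 reversed. The fit without the chalazal endosperm was chosen after seeing the data. Where a cause is not shown by the alternative itself, it was not tested. Precision is limited by 2 arrays a group and by signals near or below the filter level, where the pseudocount sets the size of a difference. Under quantile normalization the median over all probe sets in the whole seed went to -0.09, against 0.09 as deposited, and in the chalazal seed coat to -0.08, against 0.04.

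With a pseudocount of 1, values against the other 5 turned for YUC4 in the micropylar endosperm (0.55), YUC11 in the embryo proper (0.11) and YUC11 in the peripheral endosperm (0.053), YUC6 lost its calls in the embryo proper (-2.48) and the micropylar endosperm (-1.35), the called pairs were 3 for YUC4 and 2 for YUC11, and GH3.3 among the compartments had an adjusted p of 0.0671 (limma). A pseudocount of 100 turned GH3.3 in the general seed coat (-0.16), took YUC11 in endosperm over coat under 2-fold (0.92) and called YUC6 in the peripheral endosperm (-1.01). Without a filter YUC6 in the micropylar endosperm was not called (-1.42, adjusted p = 0.0585, limma). Quantile normalization ended the same call (-1.31) and turned YUC11 in the peripheral endosperm (0.090). Array weights ended the same call of YUC6 (-1.42), left 3 called pairs for YUC11, and called GH3.3 in the embryo proper (-1.57), the peripheral endosperm (-1.70) and endosperm against coat (-1.45). YUC6 in the peripheral endosperm (-1.27) was called with the 60th percentile filter, without the trend and with array weights. Without the trend GH3.3 among the compartments had an adjusted p of 0.0642 (limma). Without the chalazal endosperm YUC6 (-1.76) and GH3.3 (-1.49) in the peripheral endosperm and GH3.3 in endosperm against coat (-2.17) were called. The shared genes of most alike pattern were 0 by Spearman's rho for all 4, and 3, 2 and 0 over the 12 compartment arrays for YUC4, YUC11 and GH3.3.

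Leaving out 1 array at a time gave adjusted p-values among the compartments of 0.00062 to 0.0651 for YUC4, 0.00462 to 0.0550 for YUC11 and 2.94e-05 to 0.108 for GH3.3 (limma). For YUC4 the values ran from -0.65 to 1.39 in the chalazal, -0.45 to 0.29 in the micropylar endosperm and -1.24 to -0.83 in the general seed coat, and from -0.31 to 1.73 for the chalazal interaction, with 1 to 7 called pairs. For YUC6 they ran from -2.00 to -1.59 in the embryo proper, -1.58 to -1.26 in the micropylar, -2.08 to -0.46 in the peripheral endosperm and 1.91 to 2.18 in the whole seed. For YUC11 they ran from -0.095 to 0.043 in the embryo proper, -0.30 to 0.18 in the peripheral endosperm and -0.43 to 0.15 for the interaction, with 2 to 5 called pairs. For GH3.3 they ran from -2.07 to -1.06 in the embryo proper, -1.20 to 3.88 in the chalazal, -1.62 to 0.026 in the micropylar and -2.21 to -1.19 in the peripheral endosperm. GH3.3 further had 2.17 to 3.18 in the chalazal and -0.72 to 0.81 in the general seed coat, -2.30 to -0.61 for endosperm against coat and -2.19 to 2.88 for the interaction, with 0 to 8 called pairs. The called pairs of GH3.3 were 5 and 8 without chalazal endosperm replicates 1 and 2, 1 without either peripheral endosperm replicate and 0 without chalazal seed coat replicate 1.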
